A study of Mus musculus with 6 samples.

Results

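Ovol1, Ovol2, Esrp1, Esrp2, Zeb1, Zeb2, Snai1 and Snai2 are 8 of the 21938 protein-coding genes of the annotation, and they encode the best known opposed regulators of the epithelial state. Ovol1, Ovol2, Esrp1 and Esrp2 were taken as epithelial regulators and Zeb1, Zeb2, Snai1 and Snai2 as mesenchymal ones. Open chromatin around them was mapped by ATAC-seq (cutting of accessible DNA by the Tn5 transposase) in palatal shelves of C57BL/6 mouse embryos at E14.5. Palatal epithelium, basal and superficial layers together, was peeled by hand after a cold trypsin digest (3 libraries) and compared with what remained of the shelves, mostly mesenchyme (3 libraries). Strain and age were the same in both tissues, and the labels give no allele or agent for either. A library held about 20000 cells pooled from several animals, and the sources disagree on how many (3 embryos, 5 palatal shelves, or another number). Peaks belonged to a gene when their midpoint lay in its body or within 100 kb of its start site (the gene's window), on mm10 with GENCODE M21. Overlapping peaks of the 6 libraries were merged, and a region with a peak in at least 2 libraries was kept. The 8 windows held 325 of the 342690 kept regions, 181 around the epithelial and 144 around the mesenchymal regulators.

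Epithelial cells are held together by E-cadherin junctions, and the transition to a mesenchymal state dissolves them. ZEB and SNAI proteins are zinc finger repressors that bind E-boxes in epithelial genes such as Cdh1. OVOL zinc finger proteins repress Zeb genes, and ESRP proteins direct epithelial splicing of transcripts such as Fgfr2. In the palate the medial edge epithelium is removed when the shelves fuse, and mice lacking Esrp1 have cleft lip and palate.

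The regional sequences below are shown because each epithelium library and no mesenchyme library had a peak there. The Snai1 promoter precedes a start whose open domain had unscaled widths without overlap between the tissues. That difference did not pass the threshold. Each regional sequence is the 200 bp around the middle of the stretch shared by the libraries' peaks, read from the plus strand of GRCm38.p6 (mm10). The Snai1 promoter is the 250 bases before the RefSeq start, on the strand of the gene (plus). Capitals mark matches on either strand to CAGGTG, the E-box that ZEB and SNAI proteins bind, and to GGAATG, the TEAD motif.
Esrp1 intron, 16.2 kb downstream of the start, chr4:11370750-11370949: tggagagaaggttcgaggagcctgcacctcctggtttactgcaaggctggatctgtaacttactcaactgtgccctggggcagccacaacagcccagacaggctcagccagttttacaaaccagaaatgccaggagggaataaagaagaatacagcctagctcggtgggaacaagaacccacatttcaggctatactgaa
Esrp1, 41.2 kb upstream, chr4:11427926-11428125: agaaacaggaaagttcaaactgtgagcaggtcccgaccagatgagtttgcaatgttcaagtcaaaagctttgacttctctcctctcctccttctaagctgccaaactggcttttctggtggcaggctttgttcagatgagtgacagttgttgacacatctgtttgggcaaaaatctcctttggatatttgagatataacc
Ovol2, 90.2 kb upstream, chr2:144422253-144422452: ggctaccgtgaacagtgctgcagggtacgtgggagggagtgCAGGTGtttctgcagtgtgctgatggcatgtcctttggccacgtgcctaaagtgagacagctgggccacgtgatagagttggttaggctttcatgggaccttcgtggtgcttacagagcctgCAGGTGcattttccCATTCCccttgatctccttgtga
Zeb2 intron, 88.6 kb downstream of the start, chr2:45024481-45024680: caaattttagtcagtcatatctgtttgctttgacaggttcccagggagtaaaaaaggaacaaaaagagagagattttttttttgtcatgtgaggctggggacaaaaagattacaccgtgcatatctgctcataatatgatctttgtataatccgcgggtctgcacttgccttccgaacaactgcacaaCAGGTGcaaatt
Zeb2, 56.8 kb upstream, chr2:45170395-45170594: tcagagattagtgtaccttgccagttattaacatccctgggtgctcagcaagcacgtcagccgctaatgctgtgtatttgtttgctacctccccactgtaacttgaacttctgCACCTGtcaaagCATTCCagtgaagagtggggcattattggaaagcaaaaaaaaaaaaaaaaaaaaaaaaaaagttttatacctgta
Snai2, 98.8 kb downstream, chr16:14804627-14804826: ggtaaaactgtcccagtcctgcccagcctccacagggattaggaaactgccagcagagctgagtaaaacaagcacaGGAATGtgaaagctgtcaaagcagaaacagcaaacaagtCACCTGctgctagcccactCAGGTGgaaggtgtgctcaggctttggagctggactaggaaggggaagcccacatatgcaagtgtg
Snai1 promoter, chr2:167537945-167538194: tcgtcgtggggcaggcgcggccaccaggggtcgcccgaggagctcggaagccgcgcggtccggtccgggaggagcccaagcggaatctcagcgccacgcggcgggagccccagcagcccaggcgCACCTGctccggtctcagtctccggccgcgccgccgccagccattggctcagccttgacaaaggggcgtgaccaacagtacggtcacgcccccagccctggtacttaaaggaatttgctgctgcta

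The E-box CAGGTG was found in the central 200 bp of 5 among the 9 epithelium-only regions of the 8 genes, and in 3 among their 10 mesenchyme-only ones. Over the whole genome it occurred in 23.9% of the 10206 regions found in epithelium only and in 13.5% of the 7554 found in mesenchyme only. The sequences of Ovol2 and Snai2 held it at 2 places each. GGAATG was found in 4 epithelium-only and 2 mesenchyme-only regions of the genes (over the genome, 20.8% in epithelium-only against 11.9% in mesenchyme-only regions), and TGANTCA, the AP-1 motif, in 1 of each (13.5% in epithelium-only against 8.37% in mesenchyme-only regions over the genome). Neither AACCNGTT, the grainyhead-like motif (4.37% in epithelium-only against 1.14% in mesenchyme-only regions over the genome), nor CCGTTA, the OVOL motif (1.03% in epithelium-only against 1.28% in mesenchyme-only regions), had a match in any of the 19 regions. Among 17491 protein-coding promoters of 300 bp, 19.3% held CAGGTG, 2.81% CCGTTA, 1.94% AACCNGTT, 7.08% TGANTCA and 13.4% GGAATG. The motifs were searched on both strands, a match overlapping no other in the sequences shown. They describe letters and not binding. The promoter table held 3 of the 8 genes, Ovol2, Zeb2 and Snai1.

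The lists held 270003 to 349322 peaks in epithelium and 295141 to 341741 in mesenchyme, and covered 125 to 169 Mb in epithelium and 144 to 164 Mb in mesenchyme. The depth in reads is unknown, so list length stood in for it, and a region without a listed peak is not thereby closed. In such bulk tissue fewer cells with an open region and less opening per cell cannot be told apart. Of 8 epithelium markers 2 had more peaks in epithelium (limma, adjusted p under 0.05), Trp63 and Perp, and none fewer. Of 8 mesenchyme markers 1, Prrx1, had fewer in epithelium, and none more. None of the endothelial, immune, muscle, nerve or erythroid markers passed by peaks. By base pairs under peaks, 5 of the 8 epithelium markers were higher in epithelium (6.12% of all genes) and none lower. Of the 8 mesenchyme markers 2 were lower by this measure (7.61% of all genes) and none higher. Of the other markers Tek (endothelial, 0.83) and Gata1 (erythroid, 0.76) were higher and Cd68 (immune, -0.33) lower in epithelium. The part of these 3 genes' cell types in the results below was not tested. Both tissues were taken from the same shelves, but the sources do not say which libraries share a pool of embryos, and p-values measure the spread between these libraries.

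None of the 8 genes passed the test on the number of peaks in its window. The test was limma on log2(scaled peaks + 1), scaled to the mean list length and adjusted over 21751 genes by the Benjamini-Hochberg method. It called 336 genes higher (1.54%) and 385 lower (1.77%) in epithelium, and with the replicate number as a block 437 higher and 598 lower, again none of the 8. At an unadjusted p under 0.05, 1626 genes lay higher in epithelium and 2259 below it, among them 3 of the 8, Esrp1 (higher), Ovol2 and Esrp2 (lower). The difference went the way of the regulators' names for Esrp1 and against it for Ovol2 and Esrp2. Their windows hold 2 (Esrp1), 4 (Ovol2) and 5 (Esrp2) other protein-coding start sites, so the values are of the locus. With peaks given only to the nearest start on each side, the differences were 0.73 for Esrp1, -0.70 for Ovol2 and -0.026 for Esrp2. None of these passed the threshold. The median difference was -0.13 for the epithelial and -0.17 for the mesenchymal regulators, against -0.02 over all genes tested. With few peaks in a window, the added 1 makes the log2 difference smaller than the true ratio.

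**Figure D1:**
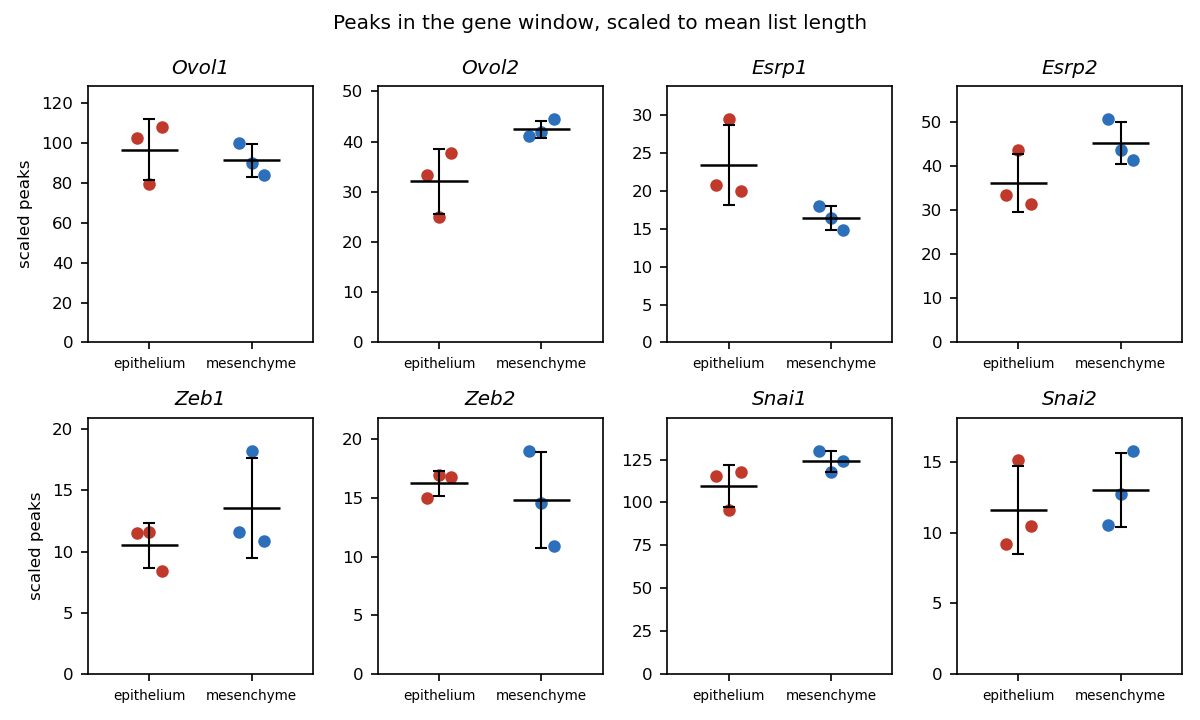
Peaks in the window of each gene (vertical axis, peaks scaled to the mean list length, from 0) in 3 epithelium (red) and 3 mesenchyme (blue) libraries, with the mean (line) and SD (bar). Only Esrp1 (19.9 to 29.4 in epithelium, 14.8 to 17.9 in mesenchyme) and Ovol2 (25.0 to 37.8 in epithelium, 41.1 to 44.4 in mesenchyme) have tissues that do not overlap.

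Among the epithelial regulators, Esrp1, the splicing regulator, had 18, 33 and 19 peaks in epithelium, against 17, 18 and 15 in mesenchyme. Scaled to list length, the lowest epithelium library was above the highest mesenchyme library, as was so for 9.01% of genes in that direction. The log2 difference was 0.47 ± 0.22 (SE, n = 3 and 3; limma adjusted p = 0.23). Its paralog Esrp2 had 29, 49 and 30 peaks in epithelium and 48, 48 and 42 in mesenchyme. The second epithelium library was the highest of the 6, so the tissues overlapped, and the difference was -0.32 ± 0.16 (adjusted p = 0.27).

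Ovol2, the OVOL family member of early surface ectoderm, had 29, 28 and 36 peaks in epithelium against 39, 46 and 45 in mesenchyme. The epithelium libraries were all below the mesenchyme libraries, as was so for 13% of genes, with a difference of -0.41 ± 0.17 (adjusted p = 0.16). Ovol2 lies on chromosome 2, whose genes had a median difference of -0.09, and scaling within each chromosome brought its value to -0.34. Ovol1, expressed in the differentiating layers of surface epithelia, had 89, 89 and 103 peaks in epithelium and 95, 99 and 85 in mesenchyme. The tissues overlapped (0.07 ± 0.11, adjusted p = 0.80), in a window with 10 other protein-coding start sites.

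Among the mesenchymal regulators, Zeb1 had 10, 13 and 8 peaks in epithelium and 11, 20 and 11 in mesenchyme (-0.32 ± 0.27, adjusted p = 0.58). Zeb2 had 13, 19 and 16 in epithelium and 18, 16 and 11 in mesenchyme (0.16 ± 0.24, adjusted p = 0.79). Both are large genes with few peaks, and in both the tissues overlapped. Snai1, the Snail repressor of Cdh1, had 100, 107 and 112 peaks in epithelium and 123, 129 and 126 in mesenchyme. The raw counts did not overlap but the scaled counts did, and the difference was -0.18 ± 0.10 (adjusted p = 0.34). Snai2, also called Slug, had 8, 17 and 10 peaks in epithelium and 10, 14 and 16 in mesenchyme (-0.16 ± 0.27, adjusted p = 0.80).

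As an alternative to the number of peaks, the base pairs under them were tested in the same way, scaled to the covered length of each list, as log2(bp + 200). Of the 8 genes, Esrp1 was covered over more and Snai1 over less of its window in epithelium, and both passed. This measure called 1332 genes higher (6.12%) and 1655 lower (7.61%) in epithelium of the 21751 tested, so calls were more common than by peaks. Peaks of Esrp1 covered 12.3, 16.8 and 10.4 kb in epithelium, against 7.77, 9.27 and 7.12 kb in mesenchyme. All epithelium libraries were above all mesenchyme libraries, with a log2 difference of 0.79 ± 0.17 (limma adjusted p = 0.0034, n = 3 and 3). Without scaling to the list's covered length the difference was 0.68 and missed the threshold (adjusted p = 0.062), and over 11 alternatives chosen after seeing the data the adjusted p lay between 0.0029 and 0.062.

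Snai1 was covered over 55.4, 69.5 and 66.3 kb in epithelium, against 99.4, 99.5 and 96.3 kb in mesenchyme. The lowest mesenchyme library lay well above the highest epithelium library. The log2 difference was -0.52 ± 0.08 (limma adjusted p = 0.00017), and it passed under all 11 of these alternatives (adjusted p between 0.00017 and 0.018), at -0.42 when scaled within each chromosome. The window holds 3 other protein-coding start sites, so the measure is of the locus and not of Snai1 alone.

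**Figure D2:**
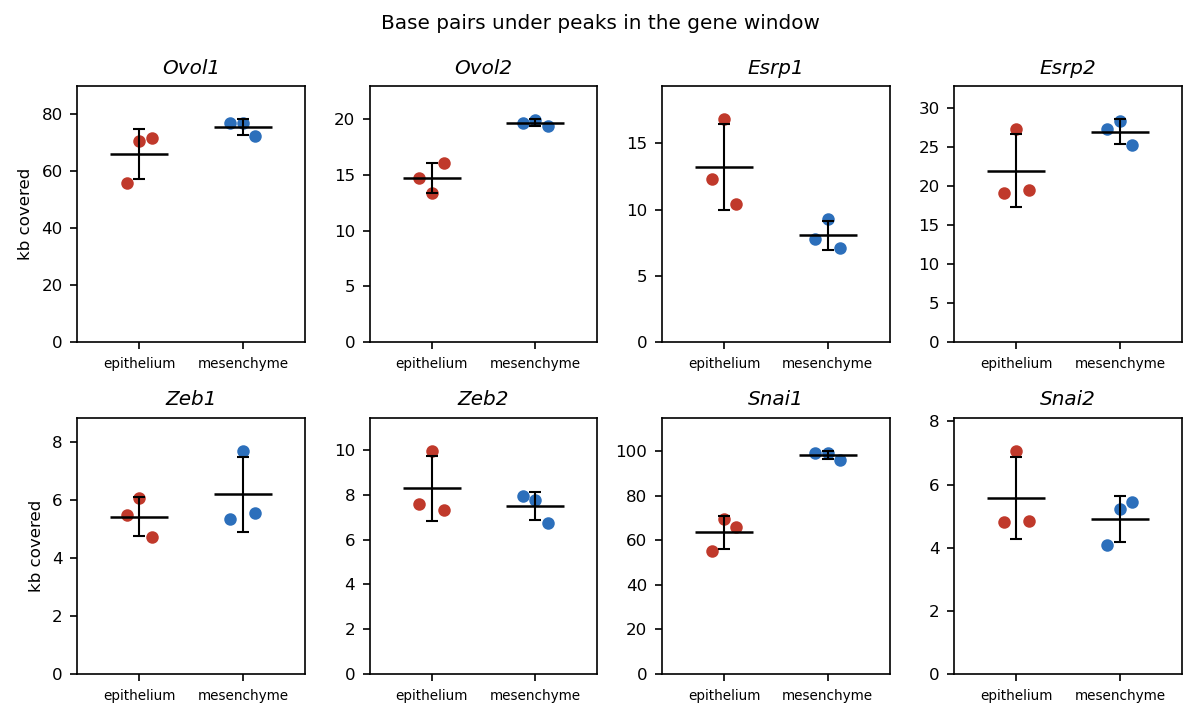
Length under peaks in the window of each gene (vertical axis, kb as listed, from 0) in 3 epithelium (red) and 3 mesenchyme (blue) libraries, with the mean (line) and SD (bar). Esrp1 lies higher in every epithelium library (10.4 to 16.8 kb in epithelium against 7.12 to 9.27 kb in mesenchyme) and Snai1 lower (55.4 to 69.5 kb in epithelium against 96.3 to 99.5 kb in mesenchyme). Ovol1 (55.9 to 71.7 kb in epithelium, 72.1 to 77.0 kb in mesenchyme) and Ovol2 (13.4 to 16.0 kb in epithelium, 19.3 to 19.9 kb in mesenchyme) also lie lower. After scaling the tissues overlap for Ovol1.

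The other 6 genes did not pass. Ovol2 was covered over 14.7, 13.4 and 16.0 kb in epithelium and 19.7, 19.9 and 19.3 kb in mesenchyme (-0.31 ± 0.15, adjusted p = 0.18), with no overlap. Snai2 was covered over 4.81, 7.07 and 4.85 kb in epithelium and 4.09, 5.22 and 5.44 kb in mesenchyme (0.27 ± 0.21, adjusted p = 0.41). After scaling, the epithelium libraries of Esrp1 and Snai2 all lay above the mesenchyme libraries (14.9% of genes) and those of Ovol2 and Snai1 all below (17.4%). The differences were -0.20 for Esrp2, -0.09 for Ovol1, -0.07 for Zeb1 and 0.24 for Zeb2, with adjusted p between 0.31 and 0.86. The epithelial regulators had a median of -0.14, the mesenchymal ones 0.09 and all genes -0.01.

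**Figure D3:**
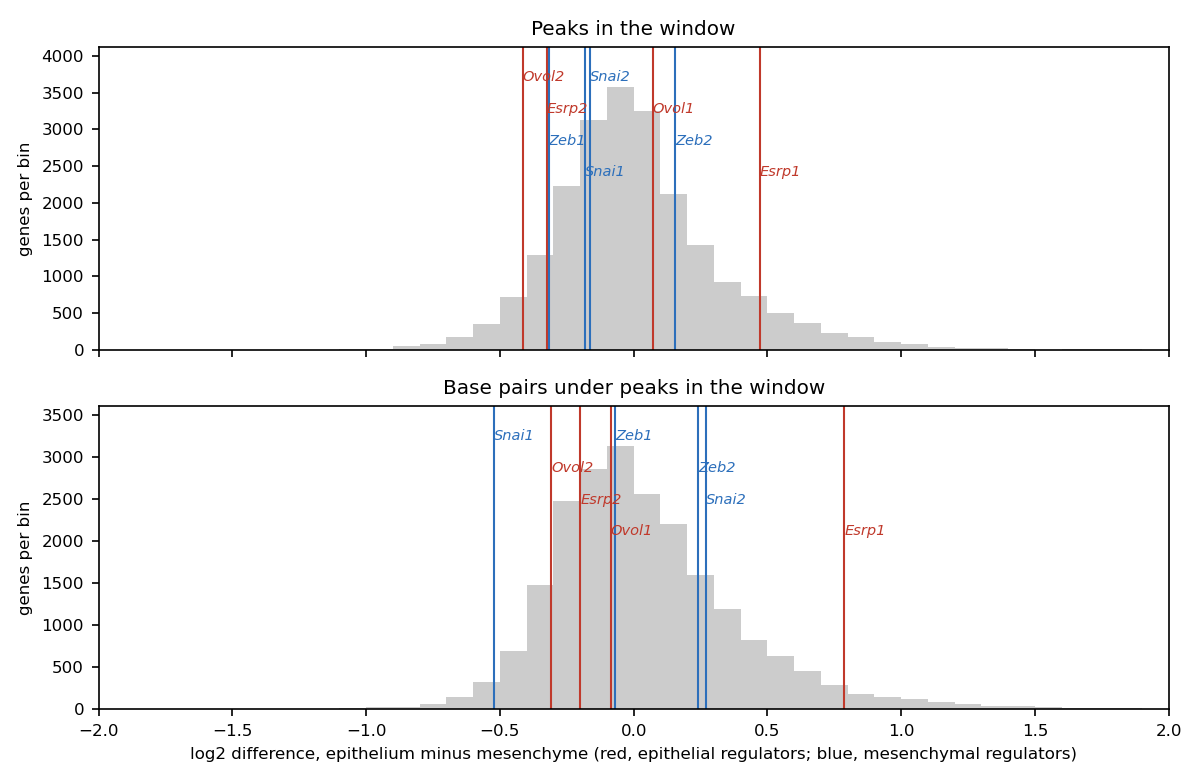
Number of genes (vertical axis) per 0.1 of log2 difference, epithelium minus mesenchyme (horizontal axis), by peaks (top) and by base pairs under peaks (bottom), with the epithelial regulators in red and the mesenchymal in blue; 13 genes lie outside the range of the lower plot. Of the 8 genes Esrp1 (0.79) and Snai1 (-0.52) stand farthest from 0 in the lower plot, and the 2 classes are mixed in both.

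Tissue-only regions are those listed by each of the 3 libraries of one tissue and by none of the other, and both kinds were found in both classes of regulator. Of 181 regions of the 4 epithelial regulators, 4 were epithelium-only and 3 mesenchyme-only, and of 144 regions of the 4 mesenchymal regulators, 5 were epithelium-only and 7 mesenchyme-only. That is 2.21% (epithelium) and 1.66% (mesenchyme) for the epithelial regulators and 3.47% (epithelium) and 4.86% (mesenchyme) for the mesenchymal ones, against 2.98% epithelium-only and 2.2% mesenchyme-only of all kept regions. These few regions carry no test. With each peak reduced to its central 200 bp before merging, the epithelial regulators had 4 of each kind and the mesenchymal ones 7 epithelium-only and 5 mesenchyme-only. Regions open in all 6 libraries made up 25.4% for the epithelial and 28.5% for the mesenchymal regulators, against 19.1% of all. With at least 2 libraries of one tissue and none of the other, the epithelial regulators had 16 epithelium-only and 22 mesenchyme-only regions, the mesenchymal ones 11 epithelium-only and 23 mesenchyme-only (10.5% in epithelium and 11.4% in mesenchyme of all kept regions).

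**Figure D4:**
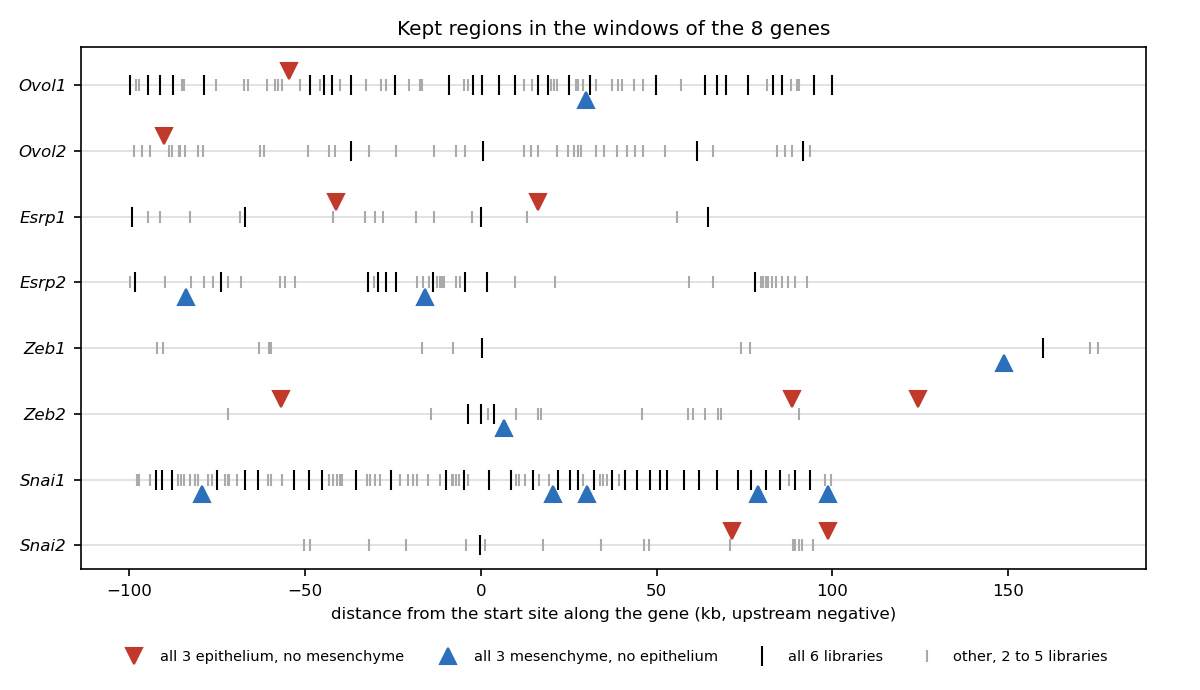
Kept regions around the 8 genes by distance from the start site along the gene (horizontal axis, kb, upstream negative), one row a gene, with epithelium-only regions as red triangles, mesenchyme-only as blue triangles, regions in all 6 libraries as black ticks and others in grey. Zeb2 carries 3 epithelium-only regions, Snai1 5 mesenchyme-only regions, and no tissue-only region lies at a start site.

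Esrp1 had 2 epithelium-only regions and no mesenchyme-only one. Without mesenchyme library 2 it had 5 epithelium-only regions, and with peaks reduced to their central 200 bp 2 epithelium-only and 1 mesenchyme-only. The first, in an intron at chr4:11370076-11371114, was covered over 612, 878 and 459 bp in the epithelium libraries, and the second, between genes at chr4:11427653-11428360, over 632, 637 and 440 bp. Their nearest protein-coding start is that of Esrp1. Their sequences, shown above, held none of the 5 motifs.

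Zeb2 had 3 epithelium-only regions, the most of the 8 genes. Its product represses epithelial genes. The intronic one at chr2:45023910-45025462 was covered over 1149, 1343 and 931 bp in epithelium. The upstream one at chr2:45169371-45170847 was covered over 806, 1064 and 1007 bp, and the third, in a Zeb2 exon at chr2:44988668-44989281, over 457, 598 and 293 bp. A mesenchyme-only region lay in an exon 6.65 kb downstream of the start, at chr2:45106293-45106963, and was covered over 269, 275 and 461 bp in mesenchyme. Zeb2 has the nearest start to all 4. With each peak reduced to its central 200 bp before merging, Zeb2 had 2 epithelium-only regions and no mesenchyme-only one. Without epithelium library 1 or 3 it had 5 epithelium-only regions, and without mesenchyme library 1 it had 3 mesenchyme-only ones.

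Snai1 had 5 mesenchyme-only regions and no epithelium-only one. With peaks reduced to their central 200 bp it had 3 epithelium-only and 4 mesenchyme-only regions. Its mesenchyme-only regions were 8 without epithelium library 2 or mesenchyme library 1, 10 without epithelium library 3 and 12 without mesenchyme library 3, when fewer libraries must match. Those 20.6 kb (chr2:167558522-167559035) and 30.1 kb (chr2:167568122-167568469) downstream have Snai1 as their nearest start, and were covered over 410, 428 and 505 bp and over 348, 244 and 260 bp in mesenchyme. The other 3 are nearer to Rnf114 (1) or Ube2v1 (2). Larger differences in length lay in regions open in all 6 libraries. One 67.2 kb downstream, nearest to Ube2v1, was covered over 3185, 3726 and 4034 bp in epithelium and 5287, 5305 and 6431 bp in mesenchyme. Another 63.3 kb upstream, nearest to Rnf114, was covered over 1719, 1956 and 2470 bp in epithelium and 3690, 4236 and 3180 bp in mesenchyme. These shared regions were chosen for their difference and carry no test.

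Snai2 had 2 epithelium-only regions and no mesenchyme-only one, 71.5 and 98.8 kb downstream of the start, covered over 510, 299 and 307 bp and over 404, 379 and 320 bp in epithelium. No other protein-coding start lies in its window. Zeb1 had 1 mesenchyme-only region, in an intron 149 kb downstream of the start, covered over 357, 366 and 301 bp in mesenchyme. Of the other epithelial regulators, Ovol2 had 1 epithelium-only region (317, 228 and 294 bp in epithelium), whose nearest start is that of Pet117. Ovol1 had 1 of each, nearest to Kat5 (494, 769 and 323 bp in epithelium) and to Snx32 (415, 214 and 420 bp in mesenchyme). Esrp2 had 2 mesenchyme-only regions, in introns of Pla2g15 (227, 207 and 346 bp) and Prmt7 (267, 343 and 359 bp). Thus 11 of the 19 regions have the gene itself as nearest start. The windows of Zeb1, Zeb2 and Snai2 hold no other protein-coding start, so their regions could hardly be nearest to another gene.

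All 8 start sites lay in regions open in every library. Within 1 kb of the start, limma called no gene of 18532 higher or lower (0% each way; 774 up and 812 down at an unadjusted p under 0.05, with Esrp1 and Snai2 among those up). Because that window is filled in some libraries, the whole merged region over each start (the open domain) was measured as well, a measure chosen after the data were seen. It called 1 gene higher and none lower of 16852 (687 and 968 at an unadjusted p under 0.05), and none of the 8. In bp as listed, not scaled to list length, 5 of the 8 had tissues that did not overlap. Scaled to the covered length of each list, the tissues overlapped for Ovol2 and Snai1. Epithelium was above mesenchyme throughout for 6.81% of genes and below for 7.81%.

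**Figure D5:**
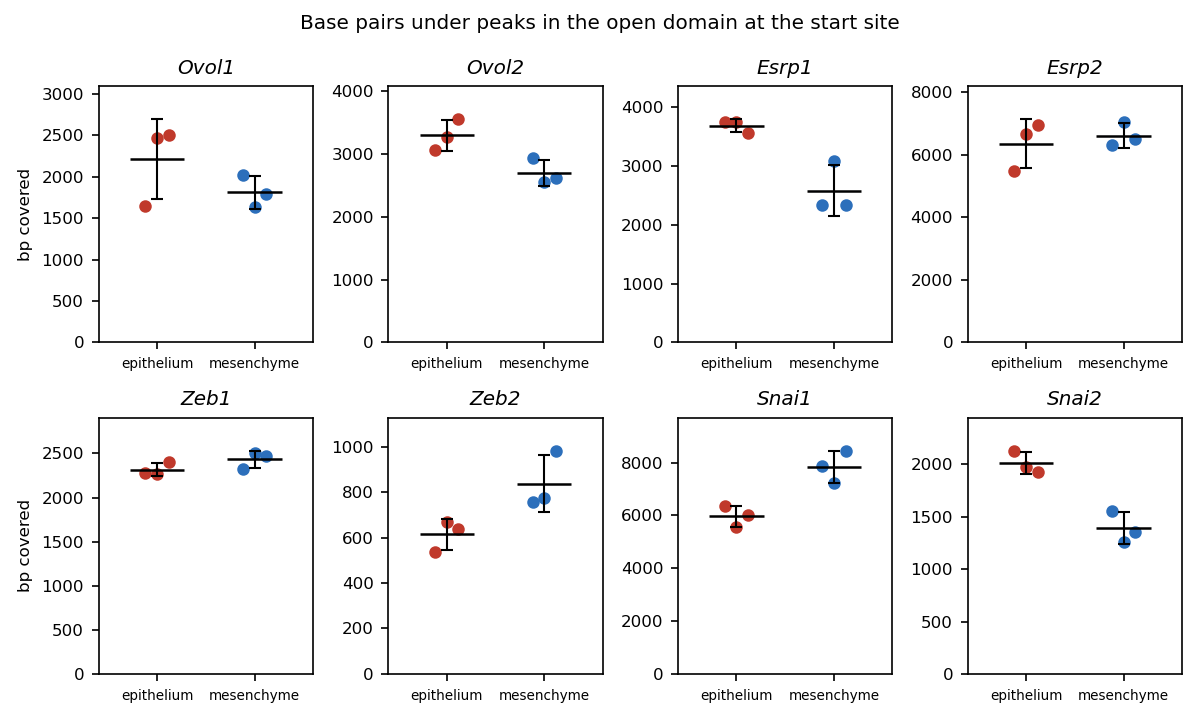
Length under peaks in the open domain at the start site of each gene (vertical axis, bp, from 0) in 3 epithelium (red) and 3 mesenchyme (blue) libraries, with the mean (line) and SD (bar). In bp as listed, epithelium is higher without overlap at Ovol2, Esrp1 and Snai2, and lower at Zeb2 and Snai1. After scaling the tissues overlap for Ovol2 and Snai1.

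The Esrp1 domain was covered over 3743, 3749 and 3567 bp in epithelium, against 2333, 3078 and 2335 bp in mesenchyme (log2 difference 0.49 ± 0.12, limma adjusted p = 0.23). The Ovol2 domain was covered over 3064, 3267 and 3546 bp in epithelium and 2938, 2544 and 2611 bp in mesenchyme (0.27 ± 0.09, adjusted p = 0.41), the opposite direction from the peaks in its window. The Snai1 domain was covered over 6342, 5547 and 6031 bp in epithelium and 7854, 7219 and 8433 bp in mesenchyme (-0.38 ± 0.09, adjusted p = 0.21). Scaled to covered length, the differences were -0.27 for Snai1 (limma adjusted p = 0.66) and 0.37 for Ovol2 (limma adjusted p = 0.45). The Snai1 domain was split into 7, 7 and 8 peaks in epithelium and 4, 5 and 2 in mesenchyme. Fewer peaks thus covered more of it in mesenchyme, in bp as listed.

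At Zeb2 the domain over the principal start was short, with 537, 669 and 637 bp in epithelium and 756, 776 and 981 bp in mesenchyme (-0.35 ± 0.14, adjusted p = 0.50). The annotated gene begins further upstream, in another region open in every library (centre 3.56 kb upstream). That region was covered over 1113, 958 and 691 bp in epithelium and 1212, 1270 and 1354 bp in mesenchyme. At Snai2 the start domain was wider in epithelium, with 2129, 1980 and 1931 bp, against 1555, 1259 and 1358 bp in mesenchyme (0.48 ± 0.10, adjusted p = 0.20). In bp as listed, the start domain of Snai2 was thus longer in epithelium, and that of Snai1 longer in mesenchyme, with neither past the threshold. The domains of Ovol1, Esrp2 and Zeb1 overlapped between tissues, with differences of 0.24, -0.06 and -0.07.

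The wider network was read from lists of partners and targets. Over all genes tested, 1.54% were higher and 1.77% lower in epithelium by peaks, and 6.12% higher and 7.61% lower by base pairs. Some listed genes, among them Trp63, Prrx1, Cdh1 and Col1a1, are also tissue markers used above. Of 12 epithelial partners, factors such as grainyhead-like, Trp63 and Klf proteins, 2 had more peaks in epithelium (1.54% of all genes) and none fewer, and by base pairs 5 were higher (6.12% of all genes) and none lower. Trp63, the master factor of stratified epithelium, had 25, 26 and 15 peaks in epithelium and 4, 12 and 5 in mesenchyme (1.68 ± 0.29, adjusted p = 0.00058). Klf5 had 28, 38 and 25 in epithelium and 15, 19 and 14 in mesenchyme (0.93 ± 0.20, adjusted p = 0.0060). Of 17 epithelial effectors Dsp, a desmosomal plaque protein, was higher (0.68, adjusted p = 0.015) and Cldn3, a tight junction claudin, lower (-0.35, adjusted p = 0.046). By base pairs 2 effectors were higher, Dsp and the SNAI and ZEB target Cdh1 (0.36, adjusted p = 0.046), and 2 lower, Cldn3 and Cldn4. The windows of Cldn3 (-0.32) and Cldn4 (-0.31), both on chromosome 5, share regions, so these 2 calls are not separate. Of 9 splicing factors and Esrp-regulated transcripts 1 was lower, Fgfr2, whose alternative exons ESRP proteins control (-0.22, adjusted p = 0.028), as it was by base pairs (-0.17, adjusted p = 0.028). The Fgfr2 window held far more kept regions than the others, 863 against at most 111 for any other listed gene. Scaled covered length there ran from 259026 bp (epithelium 1) to 335757 bp (mesenchyme 2). The window was therefore longer than that of Esrp1 (200.001 kb), and its density was not measured. It held 506, 812 and 664 peaks in epithelium and 741, 848 and 777 in mesenchyme. The part of the window's size in the call was not tested. Of 13 mesenchymal partners 1, Prrx1, was lower (-1.04, adjusted p = 0.0099), and by base pairs Prrx1 and Foxc2 were lower. None of 11 mesenchymal effectors passed by peaks, and by base pairs 2 were lower (7.61% of all genes), the collagen gene Col1a1 (-0.30, adjusted p = 0.016) and the matrix protease gene Mmp2 (-0.51, adjusted p = 0.036). None of 9 EMT signals passed by either measure. The partner list had 35 epithelium-only and 12 mesenchyme-only of 616 distinct regions (5.68% in epithelium only and 1.95% in mesenchyme only, against 2.98% in epithelium only and 2.2% in mesenchyme only of all kept regions).

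Windows of the microRNAs of this circuit are described by their tissue-only regions, with no test. miR-200 family members repress Zeb mRNAs. The Mir205 window held 10 epithelium-only regions and no mesenchyme-only one among 65 kept regions, more epithelium-only regions than any of the 8 genes (2.98% of all kept regions are in epithelium only and 2.2% in mesenchyme only). The Mir200b and Mir200c windows held no epithelium-only region and 2 and 1 mesenchyme-only regions. Of the protein genes of the circuit, Grhl2, an activator of Ovol and Esrp genes, had 64 regions, 5 in epithelium only and 2 in mesenchyme only, and Cdh1, the target of SNAI and ZEB proteins, had 83 regions, 3 in epithelium only and 0 in mesenchyme only.

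Over the 6 libraries the tested genes with the most similar scaled peak counts were Wnt10b, Lhb and Capn15 for Snai1 (Pearson r between 0.987 and 0.990, of 4391 genes of like mean count). For the epithelial regulators with 2 tissue-only regions each they were Xkr5, Gm38303 and Slc10a5 for Esrp1 (0.988 to 0.998), Farsb, Peak1 and Pde6a for Esrp2 (0.973 to 0.981), and Scrib, Sigirr and A630095N17Rik for Ovol1 (0.979 to 0.986). These are the highest of many values over points that share list length, and they describe the libraries only.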

How the data were processed

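ATAC-seq peak lists of 3 palatal epithelium and 3 mesenchyme libraries were used. Per the submitters' processing notes and the study's methods, the authors used Trimmomatic 0.38 for trimming, Bowtie2 for alignment (mm10) and SAMtools to drop duplicates, then called each library's peaks on fragments under 100 bp with MACS2 2.1.1 (threshold not given in the sources used here); deepTools 2.0 is also named. The deposited lists hold chromosome, start and end, with no height or score. A wider or merged peak can follow from depth, which is unknown.

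Genes came from GENCODE M21 (GRCm38.p6), with the principal transcript's start. Genes averaging 1 or more peaks a library were tested with limma 3.58.1 in R 4.3.3 (mean trend, no block), pseudocount 1 peak or 200 bp, Benjamini-Hochberg threshold 0.05. The fit was tested on simulated data. With 3 against 3 libraries an exact permutation test cannot go below p = 0.1, so it gave no call. The study used DiffBind on reads, which were not used here. The named genes were the 8 regulators, list genes past the threshold, those with many tissue-only regions, neighbours nearest to a tissue-only region, and genes of like pattern. The genes and lists were chosen with earlier results of these data known. Promoters are RefSeq's, on GRCm38.p6. Alternatives changed scaling, pseudocount, filter, window, the overlap rule (peaks within 200 bp merged, or each peak reduced to its central 200 bp) and libraries.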

Additional observations from a re-analysis of the deposited data

How the results depend on the processing

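By peaks, none of the 8 genes passed under any alternative except that Esrp1 (0.79) and Snai1 (-0.52) passed by covered base pairs. Genes higher and lower were 32 and 16 without scaling, 0 and 1 without a filter, 186 and 160 in a 50 kb window, 113 and 91 with the nearest start only, 1332 and 1655 by base pairs, 231 and 235 when scaled within each chromosome (added after seeing the data), and 157 to 294 and 151 to 292 when 1 library was left out (furthest from the main counts without epithelium 1, 157 and 186, and without mesenchyme 2, 222 and 151; without mesenchyme 1 and mesenchyme 3, 238 and 219 were lower). With a replicate block 437 genes were higher and 598 lower; same-numbered libraries did not deviate together (correlations -0.0074 to 0.052), and the sources do not say whether a number marks a shared pool. At the start, 62 and 36 genes passed within 500 bp, 6 higher when scaled, and, in measures added after seeing the data, 1 higher for the whole domain and 31 higher for the scaled domain; 0 passed with any library left out. Epithelium-only and mesenchyme-only regions of the epithelial regulators were 4 and 1 with peaks within 200 bp merged, 6 and 1 with equal list lengths, 16 and 22 with 2 libraries enough, 10 and 14 with 1 library of the other tissue allowed, 2 and 2 within 50 kb, and 5 to 10 and 5 to 12 with 1 library left out, when fewer libraries must match. For the mesenchymal regulators they were 11 and 23, 6 and 18, 2 and 4, and 5 to 10 and 10 to 14 under the last 4 of these, and 7 and 5 with each peak reduced to its central 200 bp (4 and 4 for the epithelial regulators). Directions turned only for values past no threshold: by peaks Snai2 with equal list lengths (0.18) and by base pairs (0.27), Ovol1 by base pairs (-0.086), and with 1 library left out Ovol1 (-0.015 to 0.21) and Zeb2 (-0.036 to 0.34). At the start Ovol1 turned within 500 bp (-0.056; Zeb1 7.6e-16), Esrp2 (0.10), Zeb1 (0.061) and Snai1 (0.0024) when scaled, Esrp2 (0.047) and Zeb1 (0.038) for the scaled domain, and Esrp2 with 1 library left out (-0.056 to 0.053). By base pairs, under alternatives added after seeing the data, Ovol1 (0.030), Zeb1 (0.037) and Snai2 (-0.17) turned in the 50 kb window, and Zeb1 with 1 library left out (-0.18 to 0.053). The cause was not tested.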
